A study of Rattus norvegicus with 22 samples.

Results

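The tumor response to microbeam radiation therapy (MRT) is described here from 11 of the 22 arrays of the study, all 11 hybridized with RNA of 9L tumors, of which 6 came from MRT-treated rats and 5 from untreated rats. Members were chosen by label alone, and every probeset of the array other than the manufacturer's controls was tested. All 11 male Fischer rats carried a 9L tumor, grown from cells of 1 rat glioma line injected into the right caudate nucleus. MRT-treated tumors (rats 6 to 11) received a single exposure 10 days after implantation, with 400 Gy in the microbeams and 18 Gy in the valleys between them at a median energy of 90 keV, and were taken 6 h later. Untreated tumors (rats 1 to 5) bore the same implant and no beam. Tumors were micropunched from frozen sections, so that host microglia, vessels and other brain cells within the punch contributed RNA, and fewer cells of a type and less RNA per cell cannot be told apart in such bulk samples. The beam ran from right to left through the head, and the contralateral brain of the same rats, used below only to compare the size of the response, was therefore irradiated in the MRT rats too.

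MRT splits a synchrotron X-ray beam into an array of parallel microscopic beams, so that tissue lies either in the path of a beam at a very high dose or in a valley at a much lower one. Cells with damaged DNA stabilize the transcription factor p53, whose targets halt the cell cycle, repair DNA or trigger apoptosis, and they hold back entry into mitosis. Stressed cells can also slow protein synthesis and switch on ATF4, a transcription factor of amino acid supply, while NF-kB and AP-1 drive cytokines, chemokines and growth factors.

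Signals are the deposited RMA values (background-corrected, quantile-normalized probe summaries) in arbitrary units on a linear scale, and differences are log2 fold changes, MRT minus untreated, with the standard error of limma's moderated fit. A probeset passed the test at an adjusted p under 0.05 (limma, Benjamini-Hochberg over 31042 probesets), and only those that passed are said to have risen or fallen. A gene of a list stands as its brightest probeset in the tumor, which gave 13696 genes. Single genes are given by the lowest, median and highest signal of the 6 MRT tumors and by the signals of untreated rats 1, 2, 3, 4 and 5 in that order.

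Before any comparison, the arrays differed in ways the groups do not account for. Array medians lay between 202 and 213 in MRT tumors and between 203 and 215 in untreated tumors, and 2 tumor arrays correlated at 0.956 to 0.994 across probesets. The gap between the 3' and 5' probesets of beta-actin, read as a sign of RNA integrity or of labelling, ranged from 0.71 to 2.35 log2 in MRT tumors and from 0.61 to 2.45 in untreated tumors. The 5' minus 3' gap of the spiked-in labelling controls was -2.92, -2.47 and -2.68 log2 in untreated rats 2, 3 and 4. It was -2.57 and -2.63 in MRT rats 7 and 8, and between -1.56 and -0.94 in all other tumors. The beta-actin gap was at least 1.51 in those same rats and at most 1.13 in the others. The cause of this split was not tested. The 10 measured markers of 9L cells and proliferation had a median 5.50 log2 higher in untreated tumors than in untreated contralateral brain, and the 18 neuron markers a median 1.10 log2 lower, so the label of the tissue fitted its markers while neural RNA remained in the punches. None of the 18 neuron, 9 astrocyte or 10 oligodendrocyte markers passed the test between MRT and untreated tumors, but their levels varied from rat to rat. Averaged over the 10 oligodendrocyte markers, MRT rats 9 and 11 stood 0.39 and 0.44 log2 above the untreated mean and the other 4 MRT rats 0.22 to 0.70 below it, against untreated rat 1 at 0.81 below and untreated rat 4 at 0.50 above. Untreated rat 5 stood apart by its macrophage markers, 1.35 above the untreated mean on average, where all other tumors lay between 0.57 below and 0.32 above. The 2 experimental sessions of the study are not assigned to rats in the labels, and their part was not tested.

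Across all probesets, 285 of 31042 passed the test (0.918%), 184 higher (0.593%) and 101 lower (0.325%) after MRT, and in 252 of them no MRT tumor overlapped an untreated tumor. Over all probesets, called or not, 0.989% had every MRT tumor above every untreated one and 0.612% every MRT tumor below. Counted once per gene, 176 of 13696 genes passed (1.29%), of which 121 were higher (0.883%) and 55 lower (0.402%), beside a median log2 fold change of -0.01 over all genes and values above 0 in 47.7% of them. Counts of the lists below are to be read beside these shares. The count depended on single rats, with 96 higher and 38 lower when untreated rat 2 was left out, and 94 and 47 without untreated rat 4. It rose to 297 higher and 182 lower without MRT rat 7, and to 279 and 185 without untreated rat 5, while untreated rat 3 (117 and 51), MRT rat 6 (112 and 50), MRT rat 8 (120 and 72) and MRT rat 10 (110 and 57) each lowered 1 or both counts by more than 1.5 times. A core of 119 probesets, 85 higher and 34 lower, with 82 gene symbols, stayed past the test with each of the 11 rats left out. They also stayed past it under each of 8 other settings wherever they were tested. The settings were array weights, low signals raised to a floor of 57, a filter on level, cyclic loess and trended robust variances. The others were all 4 groups in 1 fit, and the gap between labelling controls or between beta-actin probesets as a covariate. The filter on level kept 15521 of the 31042 probesets, and a probeset it removed was counted as held there without a test. Genes of that core are called stable here. Among the 5 rises with the smallest adjusted p was Clasrp, linked to splicing, at 670, 761 and 887 in MRT tumors, against 234, 251, 282, 208 and 271 in untreated tumors (1.63 ± 0.11, adjusted p = 7.53e-05), although its dimmer probeset stood at 0.03 (adjusted p = 0.992). Among the falls with the smallest adjusted p was Cavin2, a protein of caveolae, at 126, 152 and 178 in MRT tumors, against 271, 342, 347, 374 and 378 in untreated tumors (-1.15 ± 0.12, adjusted p = 0.000819). Both brighter probesets were stable and without overlap.

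**Figure D1:**
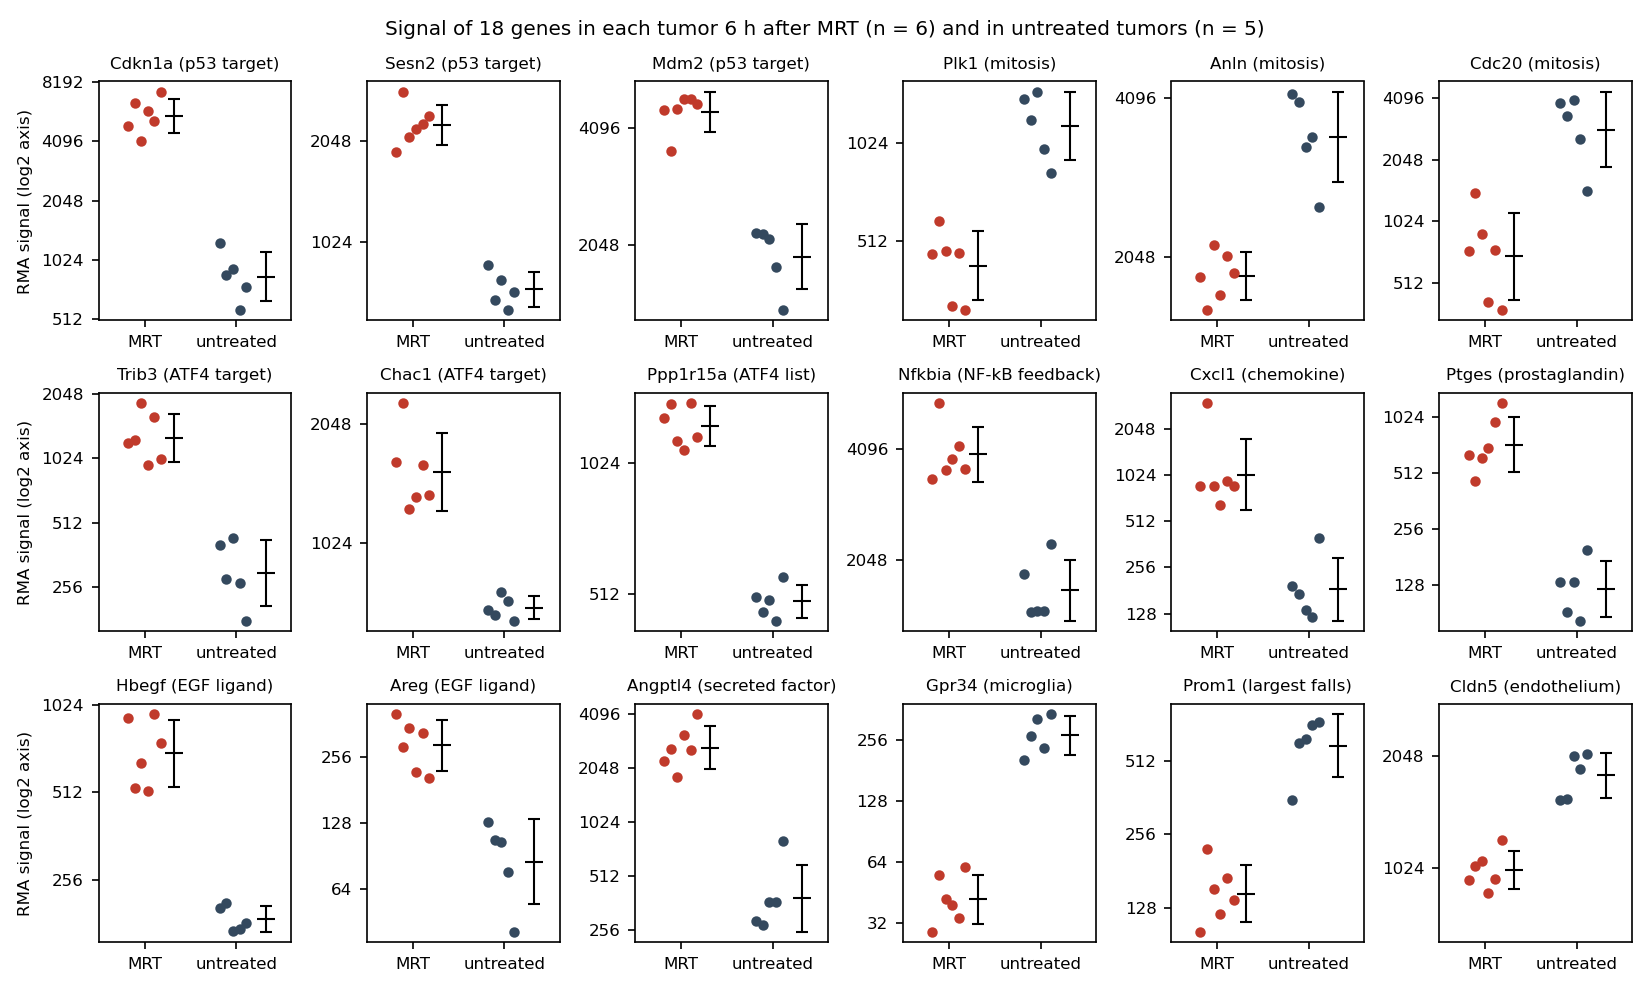
RMA signal (log2 axis, arbitrary units) of 18 genes in each of the 6 MRT tumors (left in each panel) and 5 untreated tumors (right), with the mean and SD of the log2 values as a bar beside the points. The 18 genes were picked from those past the test with their values known, and other genes that rose, such as Ccl3 and Cxcl11, overlap between groups. In all 18 genes no MRT tumor overlaps an untreated tumor, from Cdkn1a (at least 4133 after MRT, at most 1254 untreated) to Gpr34 (at most 60 after MRT, at least 203 untreated).

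Several targets of p53 rose. Of the 26 measured p53 targets, 8 rose and none fell (0.883% and 0.402% over all genes), the list's median was 0.36 against -0.01 over all genes, and 21 of 26 values lay above 0. Cdkn1a, which encodes p21, the inhibitor of cyclin-dependent kinases that holds cells before S phase and mitosis, had signals of 4133, 5515 and 7270 in MRT tumors, against 1254, 857, 928, 575 and 749 in untreated tumors. The groups were far apart, with a log2 fold change of 2.71 ± 0.20 (6.55-fold, adjusted p = 7.53e-05). Sesn2, a stress sensor that restrains mTORC1, had 1900, 2258 and 2854 in MRT tumors, against 870, 688, 789, 643 and 723 in untreated tumors, a rise of 1.63 ± 0.12 (adjusted p = 7.53e-05). Mdm2, the ubiquitin ligase that removes p53 and is itself its target, had 3571, 4657 and 4868 in MRT tumors, against 2193, 2183, 2125, 1796 and 1396 in untreated tumors, a rise of 1.24 ± 0.13 (adjusted p = 0.00107). Neither gene overlapped between groups, and the lowest MRT value of Mdm2 belonged to rat 7. The death receptor Fas rose by 1.45 ± 0.20 (adjusted p = 0.00536) and Aen, a nuclease linked to apoptosis, by 1.38 ± 0.10 (adjusted p = 9.04e-05), each without overlap. Bbc3, the pro-apoptotic BH3-only protein Puma, rose by 0.82 ± 0.11 (adjusted p = 0.00543). These 6 genes were stable. Phlda3, an inhibitor of Akt, rose by 0.89 ± 0.17 (adjusted p = 0.0297), but its call was lost without any one of untreated rats 2 and 4 and MRT rats 6, 8, 10 and 11, with low signals raised to a floor and with the labelling-control gap as a covariate. Tp53inp1 rose by 0.74 ± 0.14 (adjusted p = 0.0297) at signals of 53, 77 and 92 in MRT tumors, against 46, 46, 38, 43 and 48 in untreated tumors, close to 57, the 25th percentile of all tumor signals, and held only with untreated rat 5 or MRT rat 7 left out. Averaged over the 26 targets, the 6 MRT tumors stood 0.57 to 0.67 above the untreated mean, and the 5 untreated tumors from 0.12 below to 0.08 above it.

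No member of the lists of DNA repair, replication and apoptosis genes passed the test. None of the 35 measured genes of DNA repair and damage signaling did so (median -0.07), with the largest values in Brca1 (0.45, adjusted p = 0.862) and Xrcc4 (-0.34, adjusted p = 0.568). None of the 43 genes of DNA replication and S phase passed either (median -0.01, 20 above 0), and none of 33 genes of apoptosis and caspases (median 0.08), a list that does not hold the p53 targets Fas and Bbc3.

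The genes of mitosis and G2/M were lower as a group. Of 59 measured members, 9 fell and none rose (0.402% of all genes fell), the median was -0.79, and all 59 values lay below 0. Plk1, the kinase that drives cells into and through mitosis, had signals of 317, 471 and 591 in MRT tumors, against 1397, 1204, 1459, 983 and 830 in untreated tumors, a log2 fold change of -1.41 ± 0.20 (adjusted p = 0.00528). Anln, the contractile-ring protein anillin, had 1629, 1895 and 2160 in MRT tumors, against 4163, 4028, 3302, 3453 and 2544 in untreated tumors, a log2 fold change of -0.87 ± 0.13 (adjusted p = 0.0088). Both were without overlap and stable, and were named after their values were seen. Cdc20, the activator of the anaphase-promoting complex, had 382, 742 and 1412 in MRT tumors, against 3849, 3348, 3974, 2589 and 1439 in untreated tumors, where rat 5 lay just above the highest MRT tumor, rat 7. Its log2 fold change was -2.05 ± 0.36 (adjusted p = 0.0201), and 4 of its 5 probesets fell, from -2.27 to -1.33, while the fifth stood at -0.34 (adjusted p = 0.356). The call of its brightest probeset was lost without any one of untreated rats 1 to 4 and MRT rats 6 and 10, and with low signals raised to a floor. Ccnb1, cyclin B1, fell by 1.39 on the log2 scale (SE 0.24, adjusted p = 0.017), with 782, 1056 and 1616 in MRT tumors, against 3608, 3668, 2881, 2749 and 1760 in untreated tumors. That call was lost without untreated rat 2, 3 or 4 and with the floor, while a dimmer probeset of the gene fell by 1.70 on the log2 scale (adjusted p = 0.00715) and was stable. The spindle kinase Aurka (-1.45 ± 0.28), the kinesin Kif20a (-1.61 ± 0.32) and the spindle-pole protein Aspm (-1.54 ± 0.32) had adjusted p of 0.0377, 0.0374 and 0.0462, and Pimreg (-2.01 ± 0.40) and Knstrn (-1.72 ± 0.33) 0.0408 and 0.0313. Each of these 5 calls was lost without any one of untreated rats 1 to 4 and MRT rats 6, 9, 10 and 11, with the floor and with the labelling-control gap as a covariate.

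Much of the spread of the mitosis list lay between rats of the same group. Averaged over the 59 genes, MRT rats 6 to 11 stood 0.63, 0.75, 0.48, 1.38, 0.61 and 1.39 below the untreated mean. Untreated rats 1 to 3 stood 0.51, 0.32 and 0.19 above it, and rats 4 and 5 0.13 and 0.89 below it, so that untreated rat 5 was lower than 4 of the 6 MRT tumors. The replication list showed the same 3 low tumors, MRT rats 9 and 11 (0.46 and 0.52 below the untreated mean) and untreated rat 5 (0.80 below), although no gene of it passed the test. In these 3 tumors the 18 neuron markers averaged 0.64, 0.41 and 0.44 above the untreated mean, and the share of brain tissue in the punch as a cause was not tested. The number of mitosis genes that passed the test was 23 without untreated rat 5, 2 without untreated rat 2, 3 or 4, 3 without untreated rat 1, MRT rat 6 or MRT rat 10, and 4 without MRT rat 9 or 11. It was also 2 with low signals raised to a floor.

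Promoters of mitotic genes are known to carry CHR elements (TTTGAA) and NF-Y boxes (CCAAT), through which DREAM and related complexes switch them with the cell cycle. The promoters of Cdc20 and Plk1 (RefSeq, build GRCr8, 250 bases before to 50 after the start) are shown because both motifs lie in them, with the motifs in capitals, 1 CHR and 2 NF-Y boxes in Cdc20 and 1 of each in Plk1, where the CHR lies after the start. Cdc20 lies at chr5:137255750-137256049 on the minus strand and Plk1 at chr1:186147408-186147707 on the plus strand.
Cdc20: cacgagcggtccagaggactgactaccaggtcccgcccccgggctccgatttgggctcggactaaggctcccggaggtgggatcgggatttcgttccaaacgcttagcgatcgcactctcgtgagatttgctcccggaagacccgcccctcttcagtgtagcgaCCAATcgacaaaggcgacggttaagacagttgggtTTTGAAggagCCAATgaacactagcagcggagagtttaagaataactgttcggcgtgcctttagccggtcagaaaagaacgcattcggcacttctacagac
Plk1: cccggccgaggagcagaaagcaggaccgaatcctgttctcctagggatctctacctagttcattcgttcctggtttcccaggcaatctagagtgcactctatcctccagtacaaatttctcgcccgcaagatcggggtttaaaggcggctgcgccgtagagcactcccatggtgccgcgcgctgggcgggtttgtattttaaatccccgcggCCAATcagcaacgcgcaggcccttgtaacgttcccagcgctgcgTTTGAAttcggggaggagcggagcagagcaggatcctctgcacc
The promoter table held 50 of the 59 mitosis genes, of which 33 had a CHR and 37 an NF-Y box on either strand, against 12.1% and 37.7% of the 10640 measured genes with a promoter. Among the 45 promoters of genes that fell, 14 (31.1%) held a CHR and 21 (46.7%) an NF-Y box. Of the 9 mitosis genes that fell, 8 had a promoter in the table, and 5 of these held a CHR and 5 an NF-Y box.

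**Figure D2:**
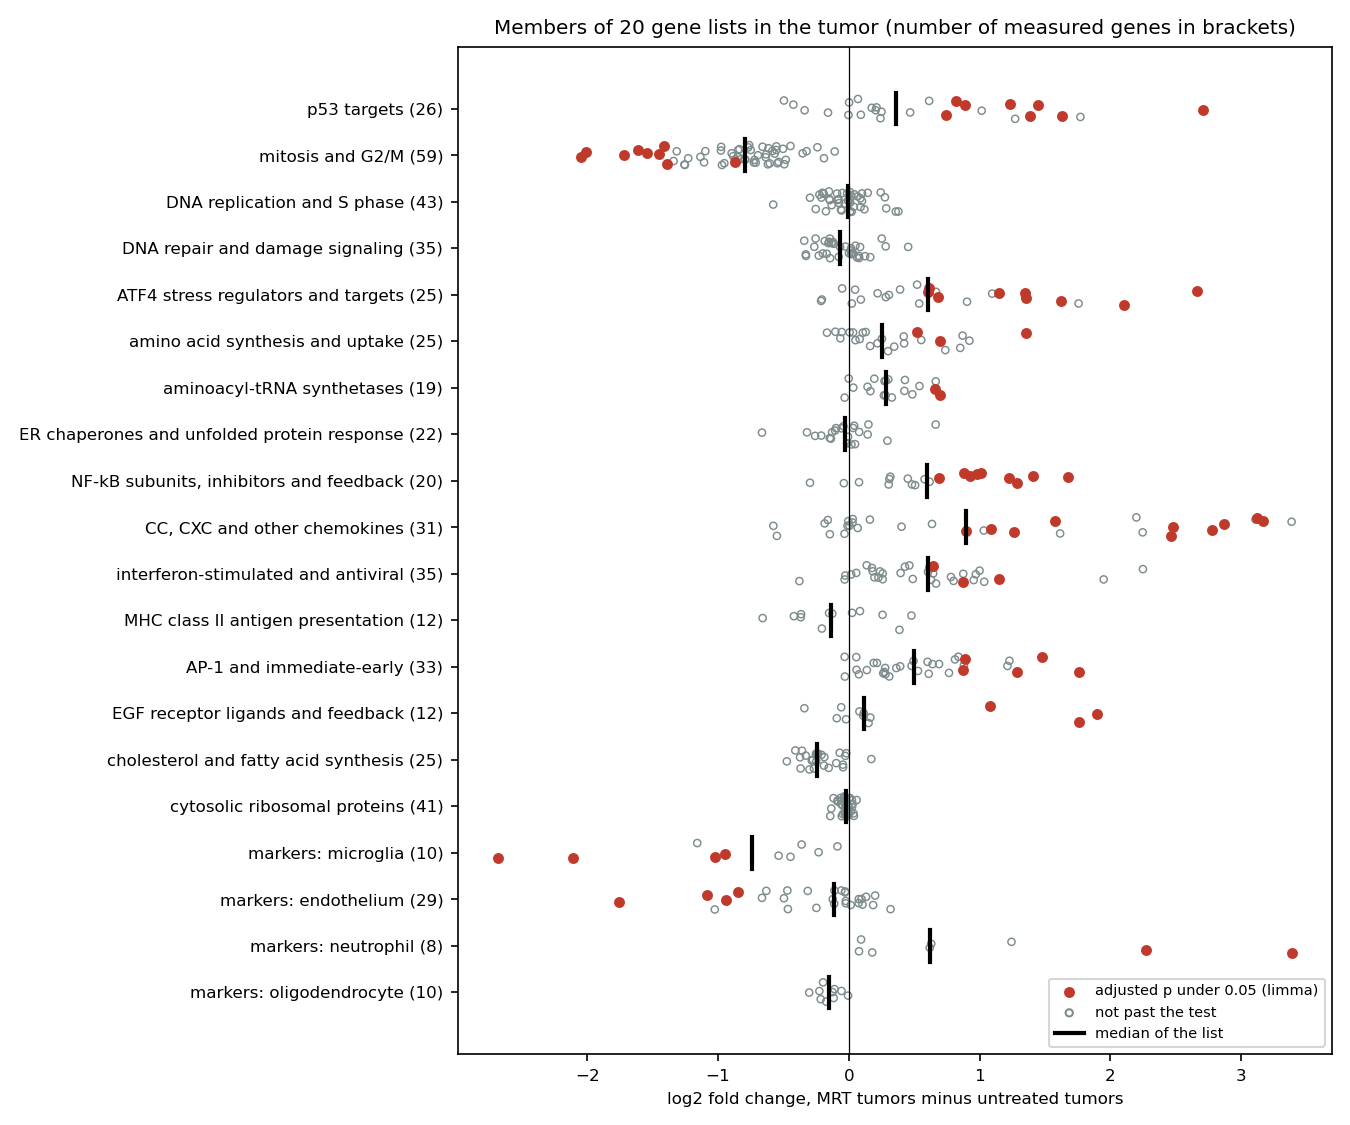
Log2 fold change (MRT tumors minus untreated tumors) of each measured member of 20 gene lists, 1 point per gene as its brightest probeset, with filled points past the limma test and the list's median as a bar. All 59 genes of mitosis and G2/M lie below 0 (median -0.79), while the medians of the ATF4, NF-kB and chemokine lists lie at 0.61, 0.60 and 0.90.

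Several genes of the ATF4 branch of the stress response rose. Of 25 measured regulators and targets, 9 rose and none fell (0.883% and 0.402% over all genes), with a median of 0.61 and 22 values above 0. Ppp1r15a, the phosphatase subunit GADD34 that restarts translation, had signals of 1096, 1239 and 1406 in MRT tumors, against 502, 464, 495, 444 and 560 in untreated tumors, a rise of 1.35 ± 0.10 (adjusted p = 7.53e-05). Trib3, a pseudokinase induced by ATF4 and CHOP, had 953, 1233 and 1852 in MRT tumors, against 404, 279, 435, 266 and 178 in untreated tumors, a rise of 2.10 ± 0.24 (4.30-fold, adjusted p = 0.00156), and its other 2 probesets rose by 2.10 and 1.64. Chac1, an enzyme that degrades glutathione, had 1245, 1486 and 2314 in MRT tumors, against 690, 670, 768, 728 and 650 in untreated tumors, a rise of 1.15 ± 0.15 (adjusted p = 0.00304). None of the 3 overlapped between groups and all were stable. Atf4 itself, regulated mainly at translation, rose by 0.61 ± 0.09 (adjusted p = 0.00799), with 9556 as the lowest MRT value and 8264, in rat 1, as the highest untreated value. The cytokine Gdf15 rose by 2.66 ± 0.30 (adjusted p = 0.00136) and Cebpb, a transcription factor that pairs with ATF4, by 1.35 ± 0.16 (adjusted p = 0.00156), and these were stable as well. The activin subunit Inhbe rose by 1.62 ± 0.29 (adjusted p = 0.021), a call lost without untreated rat 2 or 4 or MRT rat 6, 8 or 10 and with the floor. The translation repressor Eif4ebp1 rose by 0.68 ± 0.13 (adjusted p = 0.0381), a call that held only without untreated rat 1 or 5 or MRT rat 7 and was lost with the floor, with cyclic loess, with trended robust variances and with the labelling-control gap. Jdp2, a repressor related to AP-1, rose by 0.61 ± 0.11 (adjusted p = 0.0264), a call lost without untreated rat 1, 2 or 4 or MRT rat 6, 8 or 10. Without MRT rat 7, 14 of the 25 genes rose. Averaged over the list, MRT tumors stood 0.62 to 0.86 above the untreated mean, and untreated tumors from 0.09 below to 0.06 above it.

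Among the genes that ATF4 is known to use for amino acid supply, some also passed. Of 25 genes of amino acid synthesis and uptake 3 rose, with a median of 0.25 and 21 values above 0. Of 19 aminoacyl-tRNA synthetases 2 rose, with a median of 0.28 and 17 above 0, where 0.883% of all genes rose. Yars1, tyrosyl-tRNA synthetase, had 3460, 3705 and 4540 in MRT tumors, against 2112, 2678, 2886, 2394 and 2254 in untreated tumors, a rise of 0.66 ± 0.11 (adjusted p = 0.0133) without overlap, and it was stable. Cars1, cysteinyl-tRNA synthetase, rose by 0.70 ± 0.14 (adjusted p = 0.0423), which held only without MRT rat 9 or 11 and was lost with the floor and with trended robust variances, and a dimmer probeset rose by 0.66 (adjusted p = 0.0139) and was stable. Mthfd2, a mitochondrial folate enzyme, rose by 1.35 ± 0.24 (adjusted p = 0.0228), a call lost without untreated rat 4 or MRT rat 6, 8 or 10 and with the floor. Slc7a1, the carrier of cationic amino acids, rose by 0.70 ± 0.14 (adjusted p = 0.0465), a call that held only without MRT rat 9 and was lost with the floor and with trended robust variances. The shared subunit of several amino acid carriers, Slc3a2, rose by 0.52 ± 0.10 (adjusted p = 0.0312), a call lost without any one of untreated rats 1 to 4 and MRT rats 6, 8, 10 and 11, with cyclic loess and with the labelling-control gap. The 3 calls of amino acid genes became 1 without untreated rat 1, 2 or 3 or MRT rat 11, and 0 without untreated rat 4 or MRT rat 6, 8 or 10. The 2 calls of synthetases became 4 without MRT rat 7 and 1 without any one of the 5 untreated rats or MRT rat 6, 8 or 10. Among the 22 endoplasmic reticulum chaperones and genes of the unfolded protein response none passed the test (median -0.03), nor did any of 16 cytosolic heat shock genes (median 0.03).

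ATF4 pairs with C/EBP proteins on a composite element, searched here as TGATGNAA on both strands. The promoters of Trib3 (GRCr8, chr3:161275484-161275783, minus strand) and Slc7a1 (chr12:11664238-11664537, plus strand) are shown because the element starts 21 bases before the gene's start in Trib3 and 30 before it in Slc7a1, in capitals, as its reverse complement in Trib3.
Trib3: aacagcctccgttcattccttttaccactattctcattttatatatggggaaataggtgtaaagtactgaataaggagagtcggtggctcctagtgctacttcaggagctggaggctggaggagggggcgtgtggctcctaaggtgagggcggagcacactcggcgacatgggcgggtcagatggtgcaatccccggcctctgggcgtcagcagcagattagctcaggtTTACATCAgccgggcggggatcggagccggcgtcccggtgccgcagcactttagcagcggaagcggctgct
Slc7a1: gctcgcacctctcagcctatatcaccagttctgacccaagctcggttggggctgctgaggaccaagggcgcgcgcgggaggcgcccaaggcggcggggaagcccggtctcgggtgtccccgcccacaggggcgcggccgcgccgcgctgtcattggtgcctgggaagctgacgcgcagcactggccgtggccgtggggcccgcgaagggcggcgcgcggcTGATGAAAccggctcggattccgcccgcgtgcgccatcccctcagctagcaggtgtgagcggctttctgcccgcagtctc
Of the 22 promoters of the ATF4 list, 7 (31.8%) held the element, and of 17 promoters of aminoacyl-tRNA synthetases 7 (41.2%), among them both that rose, Cars1 and Yars1. Over all 10640 measured genes the share was 2.25%, and it was 8.25% among the 97 promoters of genes that rose.

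NF-kB feedback genes and chemokines were among the genes that rose. Of 20 measured NF-kB subunits, inhibitors and feedback genes, 9 rose and none fell (median 0.60, 18 above 0), against 0.883% and 0.402% over all genes. Nfkbia, the inhibitor that NF-kB induces to retain itself in the cytoplasm, had signals of 3401, 3729 and 5452 in MRT tumors, against 1868, 1480, 1490, 1489 and 2263 in untreated tumors, a rise of 1.23 ± 0.15 (adjusted p = 0.00229). Birc3, an inhibitor of apoptosis, had 455, 549 and 695 in MRT tumors, against 154, 157, 141, 138 and 344 in untreated tumors, a rise of 1.68 ± 0.22 (adjusted p = 0.00412). In both, the highest untreated value was that of rat 5, still below every MRT tumor. The nuclear inhibitor-like Bcl3 rose by 1.41 ± 0.22 (adjusted p = 0.0109) and Tnfaip2, a TNF-induced gene, by 1.28 ± 0.21 (adjusted p = 0.0129), and these 4 genes were stable. Smaller rises were those of Nfkbiz (1.01 ± 0.17, adjusted p = 0.0151), Nfkb2 (0.98 ± 0.20, 0.0478), Nfkbie (0.93 ± 0.16, 0.0194), Tnip2 (0.88 ± 0.16, 0.0279) and Ripk2 (0.69 ± 0.12, 0.0159), the first 3 coding for NF-kB proteins or inhibitors of the family. The call of Nfkbiz was lost without untreated rat 2, 3 or 4, that of Nfkbie without untreated rat 1, 2 or 4 or MRT rat 11, and that of Ripk2 without untreated rat 3 or 4. Nfkb2 held only without MRT rat 9 and Tnip2 only without untreated rat 5 or MRT rat 7, and both were lost with the floor. The 9 calls became 5 without untreated rat 2 or 3 and 4 without untreated rat 4.

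Of 31 measured chemokines 10 rose and none fell (0.883% and 0.402% over all genes), with a median of 0.90 and 23 values above 0. Cxcl1, a ligand that draws neutrophils through CXCR2, had 656, 869 and 2989 in MRT tumors, against 193, 171, 134, 121 and 400 in untreated tumors, a rise of 2.48 ± 0.40 (5.57-fold, adjusted p = 0.0127). MRT rat 7 was far above the other 5 MRT tumors, and no tumor overlapped. Ccl19, a ligand of CCR7, had 205, 249 and 285 in MRT tumors, against 104, 90, 86, 100 and 135 in untreated tumors, a rise of 1.26 ± 0.14 (adjusted p = 0.00107). The monocyte attractants Ccl7 (3.17 ± 0.36, adjusted p = 0.00135) and Ccl2 (3.12 ± 0.33, adjusted p = 0.00102) rose most among the chemokines that passed, and with Cxcl1, Ccl19 and Cxcl9 (0.90 ± 0.15, adjusted p = 0.0137) they were stable. Ccl3, a chemokine made by macrophages, rose by 2.87 ± 0.51 (adjusted p = 0.0223), a call lost without any one of untreated rats 1 to 4 and MRT rats 9 and 11. Cxcl11, a ligand of CXCR3, rose by 2.78 ± 0.54 (adjusted p = 0.0374), which held only without untreated rat 5 or MRT rat 7. Both overlapped between groups and were lost with the floor. Cxcl10, another CXCR3 ligand, had 1506, 1787 and 2318 in MRT tumors, against 191, 265, 285, 211 and 1473 in untreated tumors, where rat 5 nearly reached the lowest MRT tumor. It rose by 2.47 ± 0.44 (adjusted p = 0.0235) and held only without untreated rat 5 or MRT rat 7. Cxcl16, a ligand of CXCR6, rose by 1.57 ± 0.27 (adjusted p = 0.0169), a call lost without untreated rat 2, 3 or 4, and Ccl5 by 1.09 ± 0.20 (adjusted p = 0.0275), lost without untreated rat 1, 2 or 4 or MRT rat 6, 8, 9 or 10. Both were lost with the floor. Averaged over the list, untreated rat 5 stood 1.04 above the untreated mean, within the MRT range of 0.97 to 1.41, while untreated rats 1 to 4 lay 0.23 to 0.31 below it. The same rat had the highest mean of the macrophage markers (1.35 above the untreated mean), whose part in these levels was not tested. The number of chemokines that passed was 16 without untreated rat 5, 6 without untreated rat 1 or 3 or MRT rat 9, and 5 without untreated rat 2 or 4.

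The NF-kB element was searched on both strands as GGG, any 2 bases, TT, any 1 base and CC. Nfkbia (GRCr8, chr6:78597023-78597322, minus strand) and Cxcl1 (chr14:17479272-17479571, minus strand) are shown as an inhibitor and a chemokine that rose stably and hold it, in capitals, as 1 copy in Nfkbia (reverse complement) and as 2 in Cxcl1, 1 on each strand.
Nfkbia: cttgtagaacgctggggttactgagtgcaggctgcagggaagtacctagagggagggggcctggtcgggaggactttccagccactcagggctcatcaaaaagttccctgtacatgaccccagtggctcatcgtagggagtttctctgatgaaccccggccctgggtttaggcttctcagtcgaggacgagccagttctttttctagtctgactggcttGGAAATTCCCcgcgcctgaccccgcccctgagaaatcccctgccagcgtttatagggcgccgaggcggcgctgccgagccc
Cxcl1: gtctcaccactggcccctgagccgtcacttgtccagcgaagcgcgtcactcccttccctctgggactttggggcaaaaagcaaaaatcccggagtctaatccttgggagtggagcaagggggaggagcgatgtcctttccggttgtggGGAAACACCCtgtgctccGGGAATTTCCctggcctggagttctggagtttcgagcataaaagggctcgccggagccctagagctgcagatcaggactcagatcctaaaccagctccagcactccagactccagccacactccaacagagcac
Of 17 promoters of the NF-kB list 6 (35.3%) held it, and of 24 chemokine promoters 7 (29.2%). The share was 14.4% among the 97 promoters of genes that rose, 2.22% among the 45 that fell, and 5.24% over all measured genes.

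Interferon-stimulated genes were mostly above 0 without passing the test. Of 35 measured, 3 rose (0.883% over all genes) and 32 had values above 0 (47.7% over all genes), with a median of 0.61. Oas1b, an antiviral oligoadenylate synthetase family gene, had 266, 392 and 459 in MRT tumors, against 161, 160, 182, 104 and 294 in untreated tumors, where rat 5 lay above the lowest MRT tumor, rat 7. It rose by 1.15 ± 0.23 (adjusted p = 0.0381), the GTPase Igtp by 0.87 ± 0.16 (adjusted p = 0.0292) and Parp14 by 0.65 ± 0.13 (adjusted p = 0.0381). None of these calls held without untreated rat 1, 2, 3 or 4 or MRT rat 6, 8, 10 or 11. On average over the list, untreated rat 5 stood 0.78 above the untreated mean, like the 5 MRT tumors between 0.62 and 0.79, and MRT rat 7 stood at 0.04. The number that passed was 12 without untreated rat 5, 7 without MRT rat 7, 1 without MRT rat 9 and 0 without any other single rat. The interferon-stimulated response element was searched on both strands as GAAA, any 2 bases and GAAA, and the promoter of Oas1b (GRCr8, chr12:41395803-41396102, minus strand) is shown because 2 copies that share bases, in capitals, lie in it.
Oas1b: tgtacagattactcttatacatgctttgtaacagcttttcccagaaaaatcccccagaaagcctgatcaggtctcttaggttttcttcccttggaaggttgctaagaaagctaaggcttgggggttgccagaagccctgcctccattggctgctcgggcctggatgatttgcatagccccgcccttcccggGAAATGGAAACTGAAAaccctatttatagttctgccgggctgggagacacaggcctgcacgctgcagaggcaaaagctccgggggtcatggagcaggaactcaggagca
It was in 17 of the 26 promoters of the list (65.4%), against 2.98% of all measured genes and 11.3% of those that rose.

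Genes of antigen presentation and complement had 1 call in all. None of 12 genes of MHC class II passed the test (median -0.14) and none of 17 complement genes (median -0.24), and of 15 genes of MHC class I 1 rose, the peptide transporter Tap1 (0.83, adjusted p = 0.00528, stable). Leukocyte adhesion molecules had 2 rises among 18 genes, E-selectin (Sele, 2.79 ± 0.35, adjusted p = 0.00276, lost with the floor) and Icam1 (2.03 ± 0.23, adjusted p = 0.00143). Of 21 ligands and receptors of the TNF superfamily 3 rose, the costimulatory receptor Tnfrsf9 by 1.26 ± 0.18 (adjusted p = 0.00741), its ligand Tnfsf9 by 1.17 ± 0.20 (adjusted p = 0.017) and the TWEAK receptor Tnfrsf12a by 1.25 ± 0.25 (adjusted p = 0.0396). Tnfrsf9 was stable, the other two calls were lost without untreated rat 2, 3 or 4, that of Tnfrsf12a also without MRT rat 6, 8, 10 or 11 and with the floor, and the 3 calls became 1 without untreated rat 2, 3 or 4 and 5 without untreated rat 5. Among 37 interleukins, their receptors and colony-stimulating factors, the receptor Il4r rose by 0.73 (adjusted p = 0.0173), Stat3, the transcription factor of the IL-6 family, by 0.78 ± 0.10 (adjusted p = 0.00268), and the cytokine Il16 fell by 0.49 on the log2 scale (adjusted p = 0.02). Il4r lost its call without untreated rat 2 or 4 or MRT rat 10 and Il16 without untreated rat 1, 2 or 4 or MRT rat 6. The 3 calls became 1 without untreated rat 2 or 4 and 8 without untreated rat 5, and Stat3 was stable. Ptges, the inducible synthase of prostaglandin E2, had 462, 664 and 1208 in MRT tumors, against 132, 91, 133, 82 and 197 in untreated tumors, a rise of 2.58 ± 0.27 (6.00-fold, adjusted p = 0.00102). It did not overlap between groups, was stable, and was the only member of the 21 prostaglandin and leukotriene genes to rise.

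**Figure D3:**
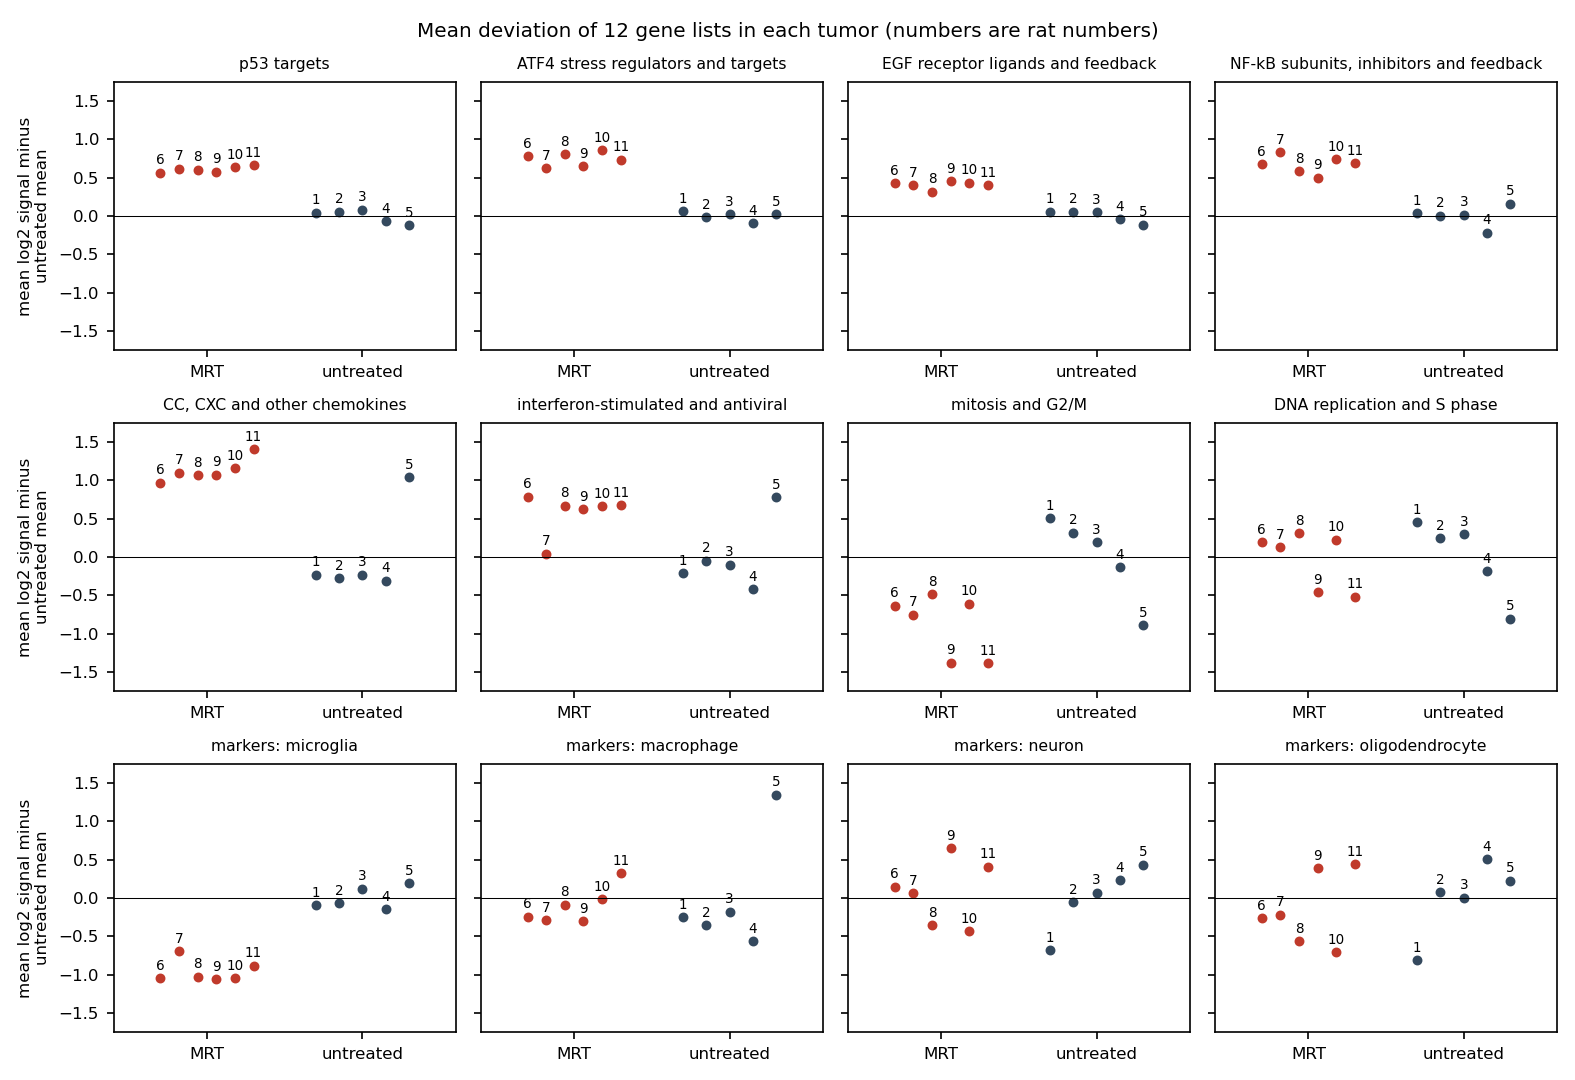
Mean over the measured members of 12 gene lists of the log2 signal minus the untreated mean (y axis), 1 point per tumor with its rat number, MRT tumors left and untreated tumors right. The p53, ATF4, EGF receptor and NF-kB lists and the microglia markers separate the groups in every rat. Untreated rat 5 lies with the MRT tumors for chemokines (1.04) and interferon-stimulated genes (0.78) and below 4 of them for mitosis (-0.89).

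Some growth factor and immediate-early genes rose as well. Of 33 measured AP-1 and immediate-early genes 5 rose and none fell (0.883% and 0.402% over all genes), with a median of 0.50 and 31 values above 0. Fosl1, the AP-1 subunit Fra-1, had 675, 870 and 1023 in MRT tumors, against 327, 250, 276, 148 and 311 in untreated tumors, a rise of 1.76 ± 0.20 (adjusted p = 0.00129) without overlap. The small Maf protein Maff rose by 1.48 ± 0.21 (adjusted p = 0.00557) and Fos by 1.28 ± 0.20 (adjusted p = 0.0114), and all 3 were stable. Egr1 rose by 0.88 ± 0.15 (adjusted p = 0.017), a call lost without untreated rat 2 or 3 or MRT rat 6, and Klf10 by 0.87 ± 0.17 (adjusted p = 0.0374), lost without any one of untreated rats 2 to 5 and MRT rats 6, 8, 10 and 11, with the floor and with either control gap as a covariate. Leaving out untreated rat 2 or 3 or MRT rat 6 brought the 5 calls to 3, and leaving out untreated rat 5 brought them to 9. Dusp5, a nuclear phosphatase that switches off ERK, rose by 0.85 ± 0.11 (adjusted p = 0.00351) and was stable, the only one of 21 Zfp36 and MAP kinase phosphatase genes to pass with all 11 rats, while 4 passed without untreated rat 5.

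Among 12 measured EGF receptor ligands and feedback genes, 3 rose (0.883% over all genes) and all 3 were stable. Hbegf, a membrane-bound ligand of the EGF receptor shed on stress, had 516, 700 and 951 in MRT tumors, against 205, 213, 170, 173 and 182 in untreated tumors, a rise of 1.90 ± 0.17 (3.72-fold, adjusted p = 0.000344). Areg, the ligand amphiregulin, had 205, 308 and 401 in MRT tumors, against 129, 107, 105, 77 and 41 in untreated tumors, a rise of 1.76 ± 0.28 (adjusted p = 0.0133). Errfi1, an inhibitor that the receptor induces, rose by 1.08 ± 0.15 (adjusted p = 0.00487). No MRT tumor overlapped an untreated tumor in any of the 3. Angptl4, a secreted inhibitor of lipoprotein lipase that also acts on vessels, had 1807, 2576 and 4052 in MRT tumors, against 288, 274, 367, 364 and 795 in untreated tumors, a rise of 2.78 ± 0.28 (6.87-fold, adjusted p = 0.000758) that was stable. Angpt2, the Tie2 ligand that destabilizes vessels, rose by 1.39 ± 0.28 (adjusted p = 0.0427), which held only without untreated rat 5 or MRT rat 7 and was lost with the floor and with either control gap as a covariate. The remaining 30 of the 32 angiogenic and hypoxia-responsive genes did not pass, and the list's median was -0.04. Among genes of coagulation and fibrinolysis, the protein C receptor Procr (1.32 ± 0.19, adjusted p = 0.00739) and Tfpi2 (2.08 ± 0.35, adjusted p = 0.017) rose. Procr was stable, and Tfpi2 was lost without untreated rat 2 or 4 and with the floor.

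Some genes of microglia and of brain endothelium fell after MRT. Of 10 measured microglia markers 4 fell (0.402% over all genes) and all 10 values lay below 0 (median -0.74). Gpr34, a lysophosphatidylserine receptor of microglia, had 29, 41 and 60 in MRT tumors, against 203, 267, 325, 234 and 341 in untreated tumors, a log2 fold change of -2.69 ± 0.20 (0.155 of the untreated level, adjusted p = 9.04e-05). In 5 of the 6 MRT tumors its signal lay below 57, the 25th percentile. P2ry12, the purinergic receptor of resting microglia, fell by 2.11 on the log2 scale (adjusted p = 0.0129), and Blnk, an adaptor of B cells and myeloid cells, by 0.95 (adjusted p = 0.00102). These 3 were stable, and Sall1, the transcription factor of microglial identity, fell by 1.02 (adjusted p = 0.019), a call lost without untreated rat 2, 3 or 4 or MRT rat 6. The summed signal of the 10 markers was 11472 to 22207 in MRT tumors and 15892 to 23150 in untreated tumors, and the groups overlapped. Averaged as log2 values over the 10 markers, they did not. MRT tumors stood 0.69 to 1.06 below the untreated mean, and untreated tumors from 0.15 below to 0.19 above it. Of 10 macrophage markers, 3 of them above 0, Cd14 rose (1.84 ± 0.37, adjusted p = 0.0431), which held only without untreated rat 5 or MRT rat 7 and was lost with the floor and with cyclic loess.

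Of 29 measured endothelial markers 4 fell (0.402% over all genes) and all 4 were stable, although the list's median was -0.11 and 9 values lay above 0. Cldn5, the claudin of the tight junctions of the blood-brain barrier, had 877, 996 and 1218 in MRT tumors, against 1560, 1571, 2043, 1896 and 2080 in untreated tumors, a log2 fold change of -0.84 ± 0.11 (adjusted p = 0.00447). Tek, the angiopoietin receptor Tie2, had 150, 238 and 320 in MRT tumors, against 493, 530, 523, 521 and 421 in untreated tumors, a log2 fold change of -1.09 ± 0.17 (adjusted p = 0.0121). Emcn, the sialomucin endomucin, fell by 0.94 on the log2 scale (adjusted p = 0.00557) and the organic anion carrier Slco1a4 by 1.76 (adjusted p = 0.00431). No group overlapped in these 4 genes. Of the other carriers in that list, Abcb1a stood at -0.11 (adjusted p = 0.985) and the lipid carrier Mfsd2a at -0.47 (adjusted p = 0.588). Outside the list, and among the largest falls of all genes, the efflux pump Abcg2 fell by 1.63 (adjusted p = 0.0151) and the organic anion carrier Slco1c1 by 1.71 (adjusted p = 0.0159), and both calls were lost without untreated rat 2, 3 or 4, that of Slco1c1 also with the floor. The summed signal of the 29 markers was 10578 to 15933 in MRT tumors and 15250 to 18769 in untreated tumors. Prom1, the membrane glycoprotein CD133 of neural stem cells and some epithelia, had 102, 145 and 222 in MRT tumors, against 355, 608, 635, 722 and 740 in untreated tumors, a log2 fold change of -2.02 ± 0.23 (adjusted p = 0.00129), without overlap and stable. Among 15 pericyte and fibroblast markers, the potassium channel subunit Abcc9 fell by 0.49 (adjusted p = 0.0257), a call lost without untreated rat 2, 3 or 4 or MRT rat 6, 8 or 10 and with the labelling-control gap, and 14 of the 15 values lay below 0 (median -0.47).

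Neutrophil markers had low signals. Of 8 measured markers 2 rose (0.883% over all genes) and all 8 values lay above 0 (median 0.62). Mean signals of 4 of the 8, Cxcr2, Camp, Mmp8 and Cxcr1, lay below 57. S100a9, a subunit of calprotectin, had 535, 1394 and 1707 in MRT tumors, against 55, 79, 124, 61 and 564 in untreated tumors, a rise of 3.39 ± 0.55 (adjusted p = 0.0138), which was lost without untreated rat 2 or 4. Its partner S100a8 rose by 2.27 ± 0.42 (adjusted p = 0.0281), a call that held only without untreated rat 5 or MRT rat 6 or 7 and was lost with the floor. In both genes, untreated rat 5 lay above the lowest MRT tumor. The 2 calls of the list became 4 without MRT rat 7, 0 without untreated rat 2 or 4, and 1 without untreated rat 1 or 3 or any one of MRT rats 8 to 11. The summed signal of the 8 markers was 1084 to 3102 in MRT tumors and 407 to 1247 in untreated tumors. Of 18 T and NK cell markers none passed (16 above 0, median 0.21, summed signal 1650 to 2156 in MRT tumors and 1429 to 1971 in untreated tumors), and of 3 B cell markers none passed.

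Several metabolic and housekeeping lists held no gene that passed. These were 41 cytosolic ribosomal proteins (median -0.02), 38 subunits of oxidative phosphorylation (-0.05), 30 constitutive proteasome subunits (-0.02), 20 genes of fatty acid oxidation (-0.12), 32 of the extracellular matrix and integrins (-0.18), 21 of ribosome biogenesis (0.19, 19 above 0) and 25 of cholesterol and fatty acid synthesis. The last had 1 value above 0 and a median of -0.24, and squalene epoxidase (Sqle) stood at -0.41 (adjusted p = 0.731). Single members passed elsewhere, namely the Nrf2 targets Osgin1 (1.01, adjusted p = 0.00747) and Srxn1 (0.76, adjusted p = 0.02) among 25, the metalloproteinase Adamts9 (0.78, adjusted p = 0.0276) among 23, the circadian repressor Nfil3 (1.13, adjusted p = 0.00156) among 15, the ligand Bmp4 (-1.41, adjusted p = 0.0403) among 28 of the TGF-beta family and the leukotriene synthase Ltc4s (-0.79, adjusted p = 0.0466). Of 15 metallothioneins and glucocorticoid-responsive genes 4 rose (0.883% over all genes), with a median of 0.15 and 10 values above 0. These were Cdkn1a and Errfi1, already counted in lists above, Lcn2 (1.48, adjusted p = 9.12e-05) and the metal-binding Mt1 (1.13 ± 0.20, adjusted p = 0.0232). Other members did not pass, among them Fkbp5 (-0.02, adjusted p = 0.998), Tsc22d3 (0.015, 0.997), Per1 (-0.09, 0.978) and Pdk4 (0.15, 0.851). Osgin1, Nfil3 and Lcn2 were stable. Adamts9, Bmp4 and Ltc4s lost their calls without untreated rat 2 or 4 or any one of MRT rats 6, 8, 9, 10 and 11 and with the floor, Bmp4 also without untreated rat 3 or 5, and Ltc4s without any rat but MRT rat 7. Srxn1 lost its call without untreated rat 2 or 4 or MRT rat 6 or 11, and Mt1 without any one of untreated rats 1 to 4 and with the floor. Without untreated rat 5, the calls became 4 for the Nrf2 targets, 3 for the metalloproteinases, 2 for the circadian genes, 2 for the pericyte and fibroblast markers, 2 for the T and NK cell markers, 3 for the angiogenic and hypoxia-responsive genes and 1 for fatty acid oxidation. Without MRT rat 7, they became 5 for the innate sensors and adaptors, 3 for the angiogenic and hypoxia-responsive genes, 2 for the circadian genes, 2 for apoptosis and caspases, and 1 each for MHC class II, the endoplasmic reticulum chaperones and the 9L tumor and proliferation markers. Of 19 innate sensors and adaptors 3 rose, Cd14 as above, the adaptor Myd88 (0.69, adjusted p = 0.0451) and the kinase Irak2 (0.93, adjusted p = 0.0127), of which Irak2 was stable and Myd88 held only without untreated rat 5.

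**Figure D4:**
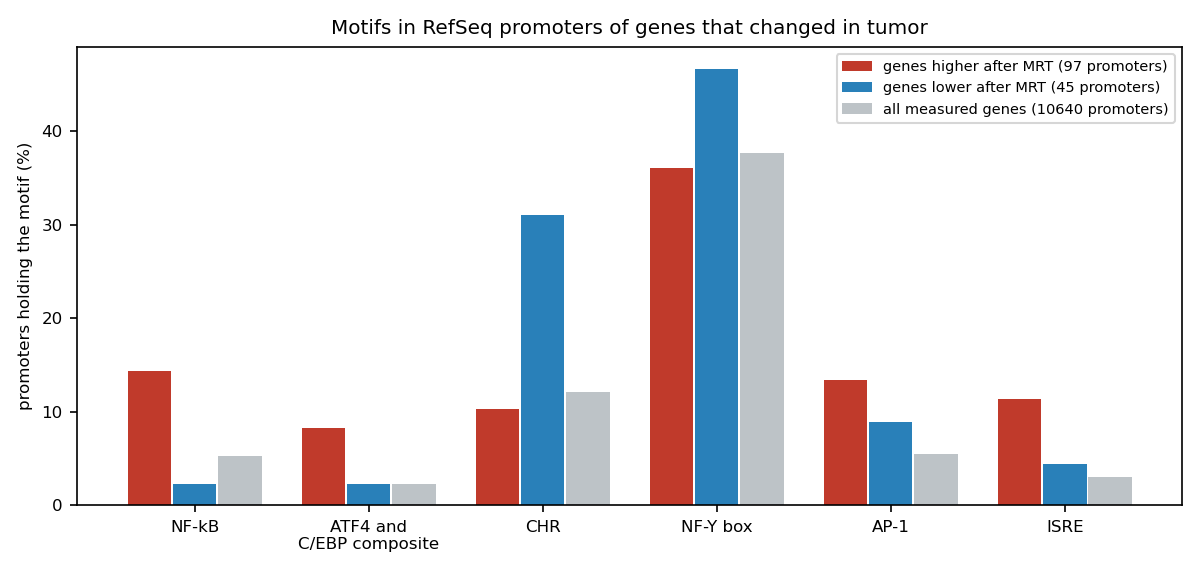
Share of RefSeq promoters (GRCr8, 300 bases) that hold each of 6 motifs on either strand, for genes that rose in tumor (97 promoters), genes that fell (45 promoters) and all measured genes (10640 promoters). The CHR stands in 31.1% of promoters of genes that fell and 12.1% of all, and the NF-kB element in 14.4% of those that rose and 5.24% of all.

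The AP-1 element, searched as TGANTCA on both strands, was in 13.4% of the promoters of genes that rose, 8.89% of those that fell and 5.43% of all measured genes. A match to a motif describes the letters in this window, and binding was not measured.

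The tumor response was then set against that of the contralateral brain of the same rats. There, 1272 of all 31042 probesets passed the test between MRT and untreated rats. Of the 285 tumor probesets, 205 also passed in contralateral brain in the same direction. The difference between the responses (tumor minus contralateral, limma over 22 arrays) passed the test for 145 of 31042 probesets (0.467%), 20 with the tumor response above (0.0644%) and 125 below (0.403%), and for 54 of the 285. Counted once per gene, 0.0876% of genes had the tumor response above and 0.745% below (0.832% in all). With the rat as a replicate block the count was 205. It moved to 261 without MRT rat 7, to 76 without untreated rat 1, 73 without untreated rat 2, 68 without MRT rat 6, 74 without MRT rat 8, 87 without MRT rat 9 or 10, and 93 without MRT rat 11.

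These 54 probesets were split by the sign of the difference. Of those that rose in tumor, 12 had a tumor response above that of contralateral brain and 27 below it. Of those that fell in tumor, 14 had a tumor response below that of contralateral brain and 1, Emcn, above it. The contralateral value could lie on the other side of 0, as in Slc7a1 (0.70 in tumor and -0.51) and Knstrn (-1.72 in tumor and 0.20). ATF4 targets and an EGF receptor ligand were among the genes with a tumor response above that of contralateral brain. Trib3 had a log2 fold change of 2.10 in tumor and -0.08 in contralateral brain, a difference of 2.18 ± 0.31 (SE, adjusted p = 0.000663). Areg had 1.76 in tumor and -0.04 in contralateral brain (difference 1.80 ± 0.31, adjusted p = 0.00531), Inhbe 1.62 and -0.02 (difference 1.64 ± 0.31, adjusted p = 0.0122), Slc7a1 0.70 and -0.51 (difference 1.21 ± 0.20, adjusted p = 0.00495) and Chac1 1.15 and 0.15 (difference 1.00 ± 0.21, adjusted p = 0.026). Of the 25 genes of the ATF4 list 5 passed the test of the difference in either direction. Among the 5, Atf3 had the smaller value in tumor (1.76, adjusted p = 0.0621) than in contralateral brain (4.08). Nupr1 had 1.10 in tumor (adjusted p = 0.125) and -0.49 in contralateral brain. Atf4, Ppp1r15a, Cebpb and Gdf15, which rose in tumor, did not pass the test of the difference. In contralateral brain 7 of the 25 rose, and the list's median was 0.61 in tumor and 0.15 in contralateral brain. Abcb1a, the efflux pump P-glycoprotein of brain vessels, had 0.13 in tumor by the dimmer of its probesets (adjusted p = 0.977) and -1.99 in contralateral brain (difference 2.12 ± 0.41, adjusted p = 0.0144). Its brighter probeset had a difference of 2.05 ± 0.44 (adjusted p = 0.0322), which did not pass with the rat as a replicate block (adjusted p = 0.106).

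For several mitotic genes the fall in tumor differed from the response in contralateral brain. Cdc20 had -2.05 in tumor and 0.00 in contralateral brain (difference -2.05 ± 0.41, adjusted p = 0.0184), Ccnb1 -1.39 and -0.15 (difference -1.24 ± 0.25, adjusted p = 0.0228) and Plk1 -1.41 and -0.20 (difference -1.21 ± 0.22, adjusted p = 0.00993). In the list, 8 of 59 genes passed the test of the difference, and the median was -0.79 in tumor and -0.08 in contralateral brain. The 8 include Cks2 (-0.98 in tumor, adjusted p = 0.193, and 1.6 in contralateral brain), which did not pass in tumor. Ckap2 (-0.85, adjusted p = 0.298, and 0.58) is also among the 8 and did not pass in tumor. Signals of the list were a median 3.84 log2 higher in untreated tumors than in untreated contralateral brain. The part of this starting level in the difference was not tested. Ly86, a myeloid surface protein that pairs with the toll-like receptor homolog RP105, fell by 1.39 on the log2 scale in tumor against -0.23 in contralateral brain (difference -1.17, adjusted p = 0.00531).

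Chemokines were among the genes with a smaller response in tumor than in contralateral brain. Ccl2 had 3.12 in tumor and 7.54 in contralateral brain (difference -4.42 ± 0.37, adjusted p = 4.61e-07), the guanylate-binding protein Gbp2 0.97 (adjusted p = 0.159) and 5.72 (difference -4.74, adjusted p = 2.12e-07), the protease inhibitor Timp1 0.33 (adjusted p = 0.491) and 4.46 (difference -4.13, adjusted p = 6.73e-06), the tubulin Tubb6 0.14 (adjusted p = 0.963) and 2.90 (difference -2.76, adjusted p = 2.12e-07) and Cxcl10 2.47 and 6.31 (difference -3.85 ± 0.49, adjusted p = 0.000222). The median of the chemokine list was 0.90 in tumor and 1.52 in contralateral brain, that of the interferon-stimulated list 0.61 and 1.31, and that of MHC class I 0.05 and 0.72, with 5, 6 and 8 members past the test of the difference. In untreated tumors these lists already stood a median 0.27, 1.49 and 1.27 log2 above untreated contralateral brain. The part of these starting levels in the size of the response was not tested. The microglia markers Gpr34 and P2ry12 fell in both tissues. Gpr34 had -2.69 in tumor and -2.06 in contralateral brain (difference -0.63 ± 0.30) and P2ry12 -2.11 and -2.41 (difference 0.30 ± 0.41), neither past the test, while Emcn fell less in tumor (-0.94 and -2.06, difference 1.12 ± 0.23, adjusted p = 0.0229). With the rat as a replicate block the difference of Emcn no longer passed (adjusted p = 0.0574).

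**Figure D5:**
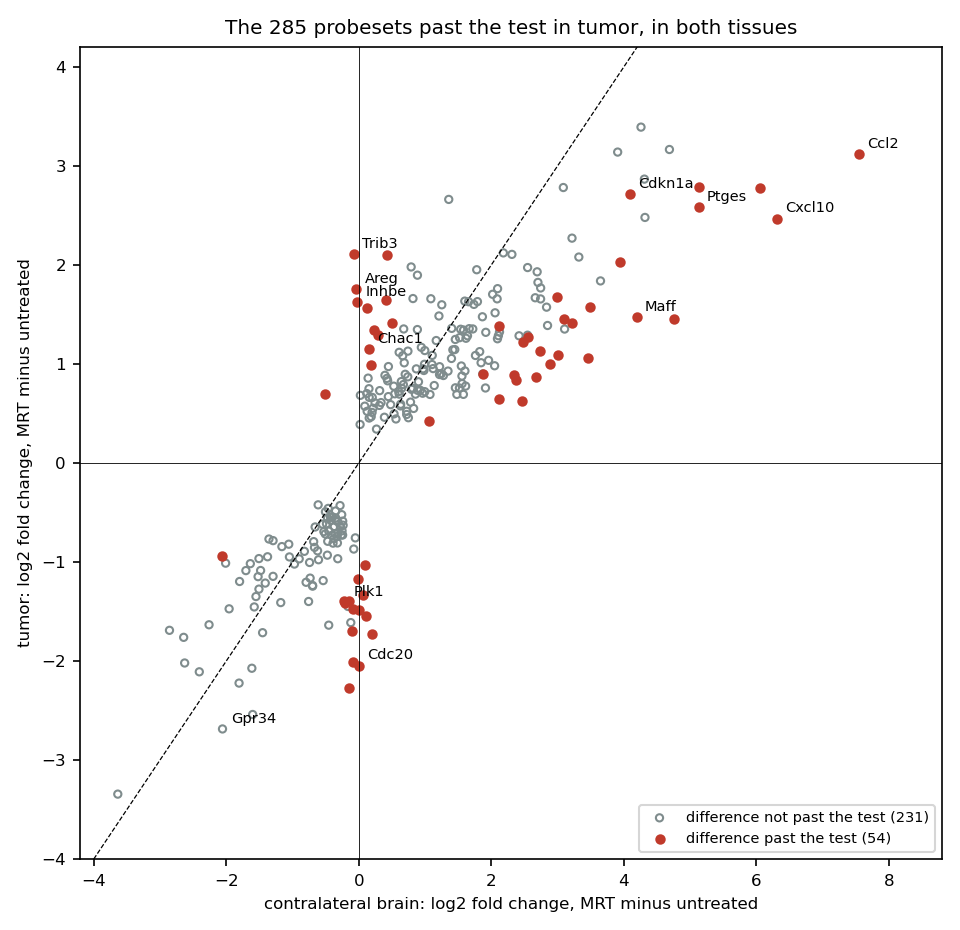
Log2 fold change (MRT minus untreated) in tumor (y axis) against that in contralateral brain (x axis) for the 285 probesets past the test in tumor, with filled points for the 54 whose difference between tissues passed the test and a dashed line of equal response. Trib3 (2.10 in tumor) and Cdc20 (-2.05 in tumor) lie near 0 on the contralateral axis, and Ccl2 lies at 3.12 in tumor and 7.54 in contralateral brain.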

How the data were processed

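RNA of micropunched tumors was hybridized to rat whole-genome expression arrays (Affymetrix Rat Genome 230 2.0). The authors deposited RMA signals, that is intensity values on a linear scale after background correction, quantile normalization and summary per probeset, rounded to whole numbers, and these were read as deposited and turned to log2. Rat numbers came from the series value table, which holds the same values. MRT and untreated tumors were compared with limma 3.58.1 in R 4.3.3 (lmFit and eBayes), and p-values were adjusted over all 31042 probesets that are not manufacturer controls. Array number, 6 and 5, limits the precision, and depth does not apply to intensities. Symbols came from the deposited annotation, updated through RefSeq (GRCr8), and 19763 probesets had 1 symbol, 372 several and 10907 none. The difference between tissues was fitted over 22 arrays, also with the rat as a replicate block, since tumor and contralateral samples of a number come from the same rat (median residual correlation of the 11 pairs 0.312, range 0.097 to 0.649). Labels tie the samples to rats but not to the 2 sessions. Alternatives were array weights, a floor of 57 for low signals, a filter on level, cyclic loess, trended robust variances, all 4 groups in 1 fit, the labelling-control or beta-actin gap as a covariate, of which the beta-actin gap was chosen after seeing the data, SAM, and each rat left out. Named genes, with 1 symbol and past the test, were the 12 largest rises and 12 largest falls with all 6 MRT tumors on 1 side of the untreated mean, the 5 rises and 5 falls with the smallest adjusted p, the 6 largest tissue differences in each direction, up to 5 members of each list that passed or the 2 largest where none did, and cell type markers. Members that passed beyond these, Plk1, Anln, Chac1, Atf4, Phlda3 and Bbc3 among them, were named after their values were seen. Members and lists were chosen with earlier results of these data known. Scripts were tested on simulated data. The authors' own comparison columns were not used. Results for some genes are not reported here.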

Additional observations from a re-analysis of the deposited data

Results flagged for a closer look

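Single tumors stood apart from their group in 20 of the gene values, by Dixon's ratio, a rule that chance meets in about 1 in 20 groups. The ratio is the gap to the nearest tumor over the group's range, both on log2 signals. It is the last number in each bracket, while the signals beside it are on the linear scale. Many gene values were looked at in both groups, so the 20 are not read as more than chance would give. MRT rat 7 had the highest signal of its group for Bbc3 (1001 against 837 in the nearest tumor, 0.637), Cxcl1 (2989 against 929, 0.771), Nfkbie (1117 against 735, 0.681) and Tnfaip2 (1429 against 769, 0.725). MRT rat 7 had the lowest signal of its group for Gbp2 (2188 against 5387 in the nearest tumor, 0.783), Mdm2 (3571 against 4558, 0.788), Oas1b (266 against 378, 0.644) and Tnip2 (426 against 633, 0.63). MRT rat 9 had the lowest signal of its group for Procr (461 against 672 in the nearest tumor, 0.632). Untreated rat 5 had the highest signal of its group for Angptl4 (795 against 367 in the nearest tumor, 0.726), Birc3 (344 against 157, 0.859), Ccl3 (738 against 163, 0.816), Cxcl10 (1473 against 285, 0.804), Cxcl11 (1086 against 138, 0.861), Nfkbiz (266 against 171, 0.828) and P2ry12 (810 against 260, 0.711). Untreated rat 5 had the lowest signal of its group for Angpt2 (172 against 339 in the nearest tumor, 0.824). Untreated rat 1 had the highest signal of its group for Atf4 (8264 against 6675 in the nearest tumor, 0.78). Untreated rat 1 had the lowest signal of its group for Adamts9 (99 against 146 in the nearest tumor, 0.735) and Prom1 (355 against 608, 0.733).

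Over all genes, taken as their brightest probeset, the response differed between tumor and contralateral brain in 114 of 13696, 12 with the tumor response above and 102 below. Of the genes named in the text, 37 were among them (limma, adjusted p under 0.05, log2 differences, tumor minus contralateral). Some genes were named because their tissue difference was among the largest in either direction. The 37 and their split by direction follow in part from that choice and are listed without being read as a result. Among these 37 the difference was below 0 in 30, namely Gbp2 -4.74, Ccl2 -4.42, Timp1 -4.13, Cxcl10 -3.85, Cxcl11 -3.28, Tubb6 -2.76, Maff -2.72, Ptges -2.54, Sele -2.35, Cdc20 -2.05, Pimreg -1.93, Knstrn -1.93, Cxcl16 -1.92, Icam1 -1.91, Ccl5 -1.91, Igtp -1.80, Bcl3 -1.80, Fas -1.65, Aspm -1.64, Mt1 -1.61, Tap1 -1.54, Parp14 -1.47, Phlda3 -1.45, Cdkn1a -1.38, Birc3 -1.31, Nfkbia -1.25, Ccnb1 -1.24, Plk1 -1.21, Ly86 -1.17 and Aen -0.74. It was above 0 in 7, namely Trib3 2.18, Abcb1a 2.05, Areg 1.80, Inhbe 1.64, Slc7a1 1.21, Emcn 1.12 and Chac1 1.00. For Emcn and Abcb1a it did not pass with the rat as a replicate block.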

How the results depend on the processing

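Of 285 probesets, 119 stayed past the test with each rat left out and under each of 8 other settings that tested them. A probeset that the level filter removed was not tested under it. No called gene result reversed. The 184 higher and 101 lower probesets became 894 and 868 with array weights, 339 and 272 with all 4 groups in 1 fit, 413 and 257 with SAM, and 73 and 28 at an adjusted p under 0.01. The lower count became 67 with low signals at the floor and 65 with the level filter. Leaving out 1 rat gave 94 to 297 higher and 38 to 185 lower. Array weights moved the higher share to 50.7%, against 64.6% in the fit without weights. The 145 tissue differences became 561 with array weights and 68 to 261 with 1 rat left out, and 205 with the rat as a fixed replicate block or 216 as a random one. The block ended the call of Emcn (adjusted p = 0.0574) and that of the brighter Abcb1a probeset. Within the tumor, no paired analysis was possible because MRT and untreated rats share no number. Uncalled values changed sign for Ppp1r1b (0.391, and -0.0357 with array weights) and Psmb7 (0.314, and -0.0929 with the labelling-control gap). The cause was not tested. Signals near 57 limit what can be read for dim genes.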
